A study of Homo sapiens with 6 samples.

Results

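The genes described here are those of the chemokine CCL20 and of the proteins that receive its signal. They are CCL20 itself, its receptor CCR6, the beta-defensins DEFB1 and DEFB4A, the inhibitory G protein alpha subunits GNAI1, GNAI2 and GNAI3, and the beta-arrestins ARRB1 and ARRB2. They were chosen by name, 9 of the 20030 gene symbols measured, and all 9 were found. RNA was sequenced from human cells labelled SKOV3, an ovarian carcinoma line, in 3 libraries of cells given recombinant human CCL20 (rhCCL20) in 5% trehalose for 24 h and 3 libraries of cells given 5% trehalose alone for 24 h, called vehicle below. Both groups therefore carried trehalose, and the labels give no dose of rhCCL20.

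Each value is an FPKM, a number of sequenced fragments divided by the length of the transcript and the size of the library, so levels of different genes can be set side by side. The comparison addressed which transcripts of the line differ after exposure to CCL20. A gene was tested if it reached 1 FPKM in 3 or more of the 6 libraries, as 10263 did, with limma on log2(FPKM + 1). Positive fold changes are higher with rhCCL20. Whether replicates were separate cultures is not stated in the labels, and the p-values therefore cover the spread among these samples, which may be technical only. The summed FPKM per library lay between 301805 and 310080, and the absolute depth is unknown. The library of rhCCL20 replicate 3 stood apart, at 11.7 on the first principal component where the others lay between -3.96 and -0.74. The keratins KRT7, KRT8 and KRT18 averaged 111.8, 641 and 588 FPKM over the 6 libraries, while the epithelial markers EPCAM and KRT19 averaged 0.017 and 0.031 FPKM. Of the other epithelial and ovarian carcinoma markers listed, MSLN averaged 26.3 FPKM and ERBB2 7.83 FPKM. By mean level they stood at percentiles 79.6 and 47.1 of the tested genes, so ERBB2 was at a middling level. CDH1, PAX8, WT1 and MUC16 averaged 0.175, 0.17, 0.014 and 0.0010 FPKM. Some of these markers were thus abundant and others nearly absent, and the identity of the line was not tested.

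CCL20 is a small secreted protein that attracts cells bearing CCR6, and CCR6 is its one established chemokine receptor. CCR6 is best known from memory T cells, B cells and immature dendritic cells, and beta-defensins, antimicrobial peptides of epithelia, can also engage it. CCR6 couples to G proteins of the inhibitory class, whose alpha subunits restrain adenylyl cyclase and whose beta-gamma subunits activate phospholipase C beta and PI 3-kinase. Receptor kinases then phosphorylate the receptor, and beta-arrestins end the G protein signal and lead the receptor into clathrin-coated pits.

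In RefSeq (GRCh38.p14), promoter entries were found for 6 of the 9 genes, namely CCL20, CCR6, GNAI1, GNAI2, GNAI3 and ARRB2. The 250 bases before the start site are printed for CCL20, for TNF and CCL3, whose levels over the libraries were among the most similar to CCL20, and, beside them, for GNAI3, a steadily expressed member with a single start in the table. Capitals mark TATAAA and GGGNNNNNCC on either strand, the second a loose form of the site of NF-kB, and overlapping matches run together. All are read 5′ to 3′ on the gene's strand.
CCL20: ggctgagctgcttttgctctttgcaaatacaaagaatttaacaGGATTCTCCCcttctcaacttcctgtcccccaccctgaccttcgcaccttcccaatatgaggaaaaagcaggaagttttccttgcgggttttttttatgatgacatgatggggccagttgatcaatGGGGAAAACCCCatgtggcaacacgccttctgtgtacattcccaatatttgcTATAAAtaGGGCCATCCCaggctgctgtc
TNF: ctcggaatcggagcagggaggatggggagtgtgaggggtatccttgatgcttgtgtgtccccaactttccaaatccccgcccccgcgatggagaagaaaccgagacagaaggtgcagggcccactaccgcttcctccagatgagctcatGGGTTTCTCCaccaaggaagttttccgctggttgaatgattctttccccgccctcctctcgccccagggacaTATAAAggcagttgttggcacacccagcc
CCL3: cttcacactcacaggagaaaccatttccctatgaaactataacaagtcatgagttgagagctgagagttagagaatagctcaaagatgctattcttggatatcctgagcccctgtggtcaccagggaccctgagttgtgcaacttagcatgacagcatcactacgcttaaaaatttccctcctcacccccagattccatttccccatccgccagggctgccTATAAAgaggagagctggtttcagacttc
GNAI3: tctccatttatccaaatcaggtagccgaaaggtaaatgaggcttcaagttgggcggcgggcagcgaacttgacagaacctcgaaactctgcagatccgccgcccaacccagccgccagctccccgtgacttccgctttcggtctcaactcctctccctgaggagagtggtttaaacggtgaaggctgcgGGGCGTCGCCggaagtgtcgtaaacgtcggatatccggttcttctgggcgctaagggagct

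The CCL20 window is chr2:227813592-227813841 on the plus strand, that of TNF chr6:31575315-31575564 on the plus strand, that of CCL3 chr17:36090144-36090393 on the minus strand, and that of GNAI3 chr1:109548365-109548614 on the plus strand. TATAAA lay 29 to 24 bases before the start in CCL20, TNF and CCL3 alike, while the GNAI3 window held none. For CCL3 the start farthest upstream was taken, and the windows of its other starts held none. Of the other genes most like CCL20, the window of CCL3L3, a near copy of CCL3, held TATAAA at the same place, that of SCNM1 held none, and CCL4 had no entry. These windows were set side by side after the likeness to CCL20 was known. Of the 35116 promoter windows of the same length, 10.7% held TATAAA on either strand. Among the windows of the other members with an entry, 3 for CCR6, 3 for GNAI2, 2 for GNAI1 and 1 for ARRB2, it was found in 0. GGGNNNNNCC was found in 54.4% of all windows, and the matches in CCL20 include overlapping ones that form the run GGGGAAAACCCC, between 81 and 70 bases before the start. The CCL20 window had 46.8% G and C and 3 CpG dinucleotides. That of GNAI3 had 57.6% and 21, and that of ARRB2 77.2% and 31, against medians of 58% and 11 over all windows. The 3 GNAI2 windows held 4, 24 and 7 CpG dinucleotides and the TNF window 10, with 57.2% G and C, so the counts of varying and steady genes overlapped.

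The ligand genes differed widely in level. CCL20 was at 0.316, 1.30 and 0.449 FPKM in rhCCL20 replicates 1 to 3, against 1.88, 0.785 and 2.20 FPKM in vehicle replicates 1 to 3. Both vehicle replicates 1 and 3 lay above all rhCCL20 libraries, but vehicle replicate 2 lay below rhCCL20 replicate 2, so the groups overlapped. The mean was 0.69 ± 0.53 FPKM with rhCCL20 and 1.62 ± 0.74 FPKM in vehicle (SD, n = 3 each), a ratio of 0.424. On the scale of log2(FPKM + 1) the difference was -0.64 (SE 0.24, 95% interval -1.17 to -0.10), which did not pass in limma (unadjusted p = 0.0239, Benjamini-Hochberg adjusted p = 0.937). An unadjusted p under 0.05 was met by 4.73% of all genes tested. The pseudocount weighs on a gene this low, and with 0.1 in place of 1 the log2 fold change was -1.22 (adjusted p = 0.939 in limma). CCL20 passed the filter on low values through exactly 3 libraries, rhCCL20 replicate 2 and vehicle replicates 1 and 3, and it was not tested when any of these was left out. The treatment added CCL20 as protein, which RNA sequencing does not measure.

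DEFB1, which encodes the beta-defensin that many epithelia make without stimulation, was the most abundant ligand gene. It was at 18.7, 11.7 and 16.9 FPKM in rhCCL20 replicates 1 to 3, against 12.8, 12.5 and 13.7 FPKM in vehicle replicates 1 to 3. The rhCCL20 libraries were split, with replicates 1 and 3 above every vehicle library and replicate 2 below every one. The mean was 15.7 ± 3.6 FPKM with rhCCL20 and 13.0 ± 0.63 FPKM in vehicle (SD, n = 3 each), and the log2 fold change of 0.23 (95% interval -0.06 to 0.53) did not pass in limma (adjusted p = 0.937). Without rhCCL20 replicate 2 the log2 fold change was 0.42 (95% interval 0.28 to 0.56) and without rhCCL20 replicate 1 it was 0.10 (-0.17 to 0.38). The limma adjusted p-values were 0.253 and 0.878. DEFB1 exceeded CCL20 in every library, by 59, 9.0 and 37.5 times in rhCCL20 replicates 1 to 3 and by 6.81, 15.9 and 6.24 times in vehicle replicates 1 to 3. These FPKM ratios concern transcripts and not secreted peptide.

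DEFB4A, which encodes the inducible beta-defensin 2, was listed at 0 in all 6 libraries. DEFB4B, a copy of it, was also listed at 0. The annotated transcripts of the pair share an exact stretch of 254 bases, so fragments from it could not be assigned to one copy. Whether such fragments were counted is not known, so the 0 of this pair need not mean absence. The other beta-defensin genes on the list, 19 with DEFB4B, were likewise all listed at 0 in the 6 libraries. DEFB1 was thus the only one of these beta-defensin genes with a value above 0. DEFB1 and DEFB4A both lie on chromosome 8.

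The receptor transcript was at the edge of detection. CCR6 was at 0.012, 0.118 and 0.046 FPKM in rhCCL20 replicates 1 to 3, against 0.038, 0.053 and 0.129 FPKM in vehicle replicates 1 to 3. The lowest and the second highest value both belonged to rhCCL20 libraries, and the groups overlapped. The mean was 0.059 ± 0.054 FPKM with rhCCL20 and 0.073 ± 0.049 FPKM in vehicle (SD, n = 3 each), too low for the filter. In a limma fit with no filter CCR6 was not called (adjusted p = 0.969), at a log2 fold change of -0.020 with a 95% interval of -0.13 to 0.09, but log2(FPKM + 1) compresses values this close to 0, so the interval does not bound the fold change of CCR6 itself. After adjustment for relative depth, read from the spacing of low values, the CCR6 values were 1, 10 and 4.04 times the lowest in rhCCL20 replicates 1 to 3 and 3.04, 4.09 and 10.2 times the lowest in vehicle replicates 1 to 3. The lowest is 1 by construction. The others lay within 0.086 of whole numbers, except vehicle replicate 3, at a distance of 0.24. Over 1622 low genes treated in the same way, 54.5% of values beside the lowest lay within 0.2 of a whole multiple, where an even spread gives 40%. Vehicle replicate 3 of CCR6 fell outside that bound. If each step were 1 fragment, CCR6 would rest on about 10 fragments or fewer per library. The difference between the groups was smaller than the spread within each.

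CCR6 lies on chromosome 6 from 167111807 to 167139696 (plus strand) in GENCODE 29 (GRCh38, the build of the submitters' processing notes). There it shares 3008 of its 4346 exonic bases with Z94721.2, a processed transcript on the same strand. Even these few fragments therefore cannot be given to CCR6 with certainty. Fragments of CCR6 may also have been assigned to Z94721.2 or left out, which would understate the CCR6 level. CCL20 lies on chromosome 2 from 227805739 to 227817564 on the plus strand, and 0 other annotated genes share its exonic bases.

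**Figure D1:**
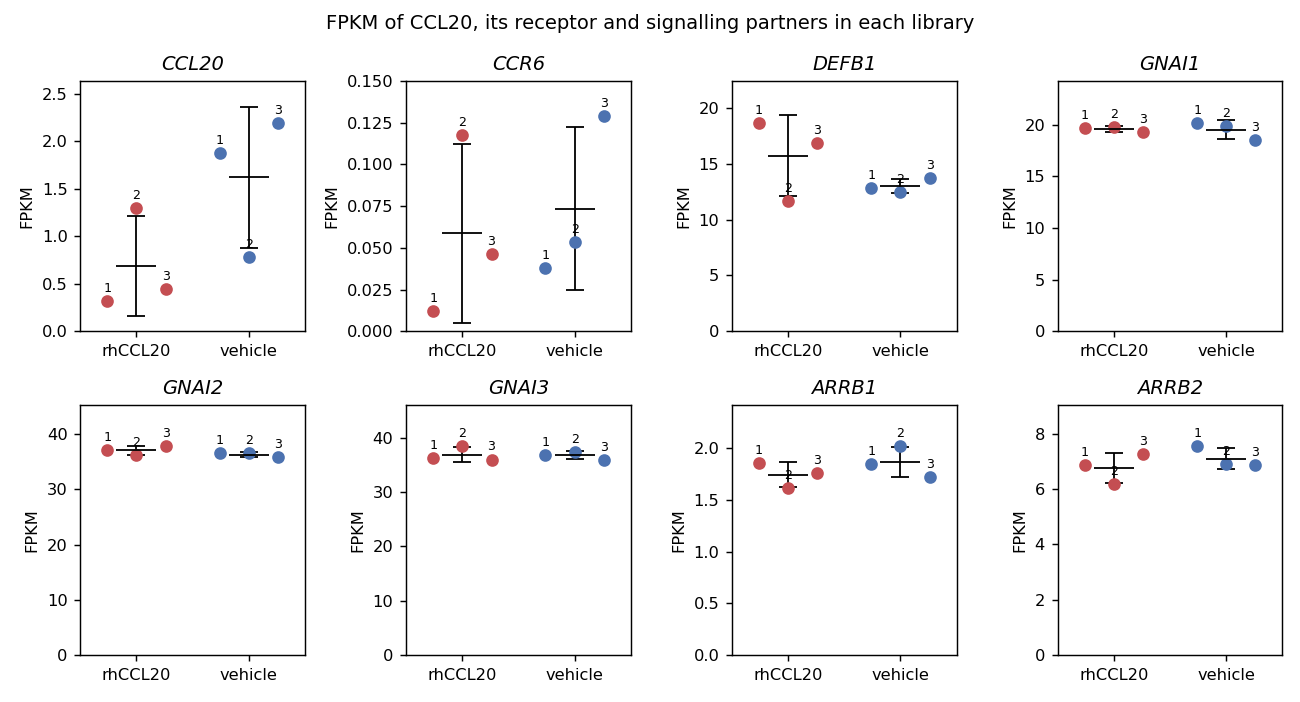
FPKM of the 8 member genes with values above 0, one panel per gene, with rhCCL20 libraries left and vehicle libraries right, numbered by replicate, and bars for the mean ± SD of 3 libraries. CCL20 and CCR6 varied between libraries within each group, and DEFB1 mainly within the rhCCL20 group. GNAI1, GNAI2 and GNAI3 stayed within narrow ranges in both groups. DEFB4A, listed at 0 in all 6 libraries, is not drawn.

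The transducers downstream of the receptor were expressed at much higher and steadier levels. GNAI2, the alpha subunit that predominates in leukocytes, was at 37.2, 36.2 and 37.8 FPKM in rhCCL20 replicates 1 to 3, against 36.6, 36.6 and 35.8 FPKM in vehicle replicates 1 to 3. GNAI3, a broadly expressed relative, was at 36.2, 38.4 and 36.0 FPKM in the rhCCL20 libraries, against 36.8, 37.4 and 35.9 FPKM in the vehicle libraries. GNAI1, a relative abundant in brain, was at 19.7, 19.8 and 19.3 FPKM in the rhCCL20 libraries, against 20.2, 19.9 and 18.5 FPKM in the vehicle libraries. The groups overlapped for all 3 genes, and the highest library exceeded the lowest by 1.09 times for GNAI1, 1.06 times for GNAI2 and 1.07 times for GNAI3.

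The log2 fold changes of these subunits were within a few hundredths of 0, at 0.0042 for GNAI1 (95% interval -0.09 to 0.10), 0.028 for GNAI2 (-0.05 to 0.11) and 0.0045 for GNAI3 (-0.08 to 0.09), with limma adjusted p-values of 0.991, 0.941 and 0.991. The values of GNAI1 and GNAI3 turned negative under quantile normalization and under median ratio scaling. In units of FPKM + 1, the intervals of the 3 genes ran from 0.937 to 1.08 times the vehicle level. Together the 3 subunits came to between 90.3 and 94.3 FPKM per library. GNAI2 made up 39.6 ± 1.2% of that sum with rhCCL20 and 39.2 ± 0.38% in vehicle (SD, n = 3 each), a difference of 0.40 percentage points (exact permutation test, two-sided, p = 0.6, where 3 libraries against 3 cannot go below 0.1). GNAI3 held 39.4 ± 1.1% with rhCCL20 and 39.7 ± 0.27% in vehicle, and GNAI1 held 21.0 ± 0.20% with rhCCL20 and 21.1 ± 0.54% in vehicle (SD, n = 3 each). GNAI2 exceeded GNAI3 in 2 of 6 libraries, with ratios between 0.943 and 1.05, so their order was not fixed.

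The subunit genes lie apart in the genome. GNAI1 is on chromosome 7 from 79768028 to 80226181, GNAI2 on chromosome 3 from 50226292 to 50259355 and GNAI3 on chromosome 1 from 109548611 to 109618321, each on the plus strand by the GENCODE 29 annotation. Their annotated coding transcripts share exact stretches of at most 29 bases between GNAI1 and GNAI2, 29 between GNAI1 and GNAI3 and 25 between GNAI2 and GNAI3. On its own strand GNAI3 shares 596 exonic bases with AL355310.1, 132 with AMPD2 and 75 with MIR197, so some of its fragments may be assigned to these genes or theirs to it. It also shares 1339 exonic bases with GNAT2 on the opposite strand. The strand setting of the counting is not given in the sources used here, but GNAT2, a transducin subunit of cone photoreceptors, was at 0.018 to 0.215 FPKM over the 6 libraries.

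The beta-arrestins were present at unequal levels. ARRB2, the form known as beta-arrestin 2, was at 6.87, 6.17 and 7.25 FPKM in rhCCL20 replicates 1 to 3, against 7.54, 6.89 and 6.86 FPKM in vehicle replicates 1 to 3. ARRB1, which encodes beta-arrestin 1, was at 1.86, 1.62 and 1.76 FPKM in the rhCCL20 libraries, against 1.85, 2.02 and 1.73 FPKM in the vehicle libraries. For both genes rhCCL20 replicate 2 was the lowest of the 6 libraries, and the groups overlapped. The log2 fold changes were -0.062 for ARRB2 (95% interval -0.21 to 0.08) and -0.061 for ARRB1 (-0.21 to 0.09), each with a limma adjusted p of 0.937. Without rhCCL20 replicate 2 they were -0.0059 for ARRB2 and -0.028 for ARRB1. Over the libraries left out in turn they lay between -0.11 and -0.0059 for ARRB2 and between -0.097 and -0.023 for ARRB1, with the value of ARRB1 nearest to 0 without vehicle replicate 2. ARRB2 exceeded ARRB1 in all 6 libraries, by between 3.41 and 4.13 times. ARRB1 made up 20.5 ± 0.93% of the summed arrestin FPKM with rhCCL20 and 20.8 ± 1.6% in vehicle (SD, n = 3 each), a difference of -0.29 percentage points (exact permutation test, two-sided, p = 0.8, smallest possible 0.1).

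ARRB2 lies on chromosome 17 from 4710489 to 4721499 on the plus strand, and ARRB1 on chromosome 11 from 75264182 to 75351705 on the minus strand, where it shares 216 exonic bases with the antisense gene AP001972.2. The longest exact stretch shared by coding transcripts of the arrestins was 23 bases.

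Across the members, 7 of 9 passed the filter and 0 of these 7 passed the test, with 1 at an unadjusted p under 0.05, the lower CCL20, where 2.15% of all genes tested were lower at such a p. That CCL20 interval excluded 0 in limma as planned, but it did not with no filter (-1.35 to 0.08, unadjusted p = 0.0719), with robust eBayes (-1.33 to 0.06), without rhCCL20 replicate 1 (-1.06 to 0.10) or without rhCCL20 replicate 3 (-1.14 to 0.05). Of all 10263 genes 1 passed, 0.00974%, and it is not a member. Fold changes were above 0 for 4 tested members and below 0 for 3, with a median of 0.0042 against 0.012 over all genes tested. The groups overlapped for all 7, while 11% of all genes tested had groups that did not overlap. The 95% interval lay within 1.5-fold in either direction for 6 of the 7, against 99.6% of all genes tested, and CCL20 was the exception. By mean FPKM over the 6 libraries the order was GNAI3 at 36.8, GNAI2 at 36.7, GNAI1 at 19.6, DEFB1 at 14.4, ARRB2 at 6.93, ARRB1 at 1.81, CCL20 at 1.15 and CCR6 at 0.066, with DEFB4A at 0. The ranges over the 6 libraries overlapped for GNAI2 and GNAI3, for GNAI1 and DEFB1, and for ARRB1 and CCL20, and not for other neighbours in this order. GNAI2 and GNAI3 stood at percentile 85.4 of the tested genes by mean level, and CCL20 at percentile 2.47.

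**Figure D2:**
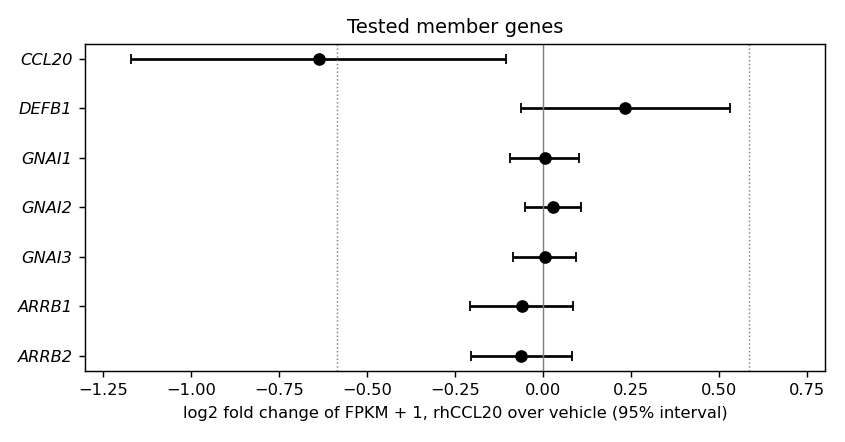
Log2 fold changes of FPKM + 1 (rhCCL20 over vehicle) for the 7 tested member genes, with 95% limma intervals from 3 libraries per group; dotted lines mark 1.5-fold. The G alpha and arrestin intervals are narrow and span 0, and the CCL20 interval is the widest, from -1.17 to -0.10.

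Several inflammatory genes had a pattern over the libraries close to that of CCL20. Each tested gene was scaled over the 6 libraries to mean 0 and SD 1 on the scale of log2(FPKM + 1), and the root mean square difference from CCL20 was taken for the 221 other genes with a range of at least 0.5. The smallest differences were 0.298 for CCL3L3, 0.370 for SCNM1, 0.381 for CCL4, 0.400 for TNF and 0.437 for CCL3. CCL3, CCL3L3 and CCL4 encode inflammatory chemokines, TNF encodes tumour necrosis factor, and SCNM1 encodes a splicing factor. CCL3 and CCL3L3 are near-identical copies whose values are uncertain for that reason. CCL3L3, CCL4, TNF and CCL3 reached 1 FPKM only in rhCCL20 replicate 2 and vehicle replicates 1 and 3, as CCL20 did. The filter thus admitted them through the libraries in which they were high, which in part fixed their likeness to CCL20. SCNM1 was above 1 FPKM in all 6 libraries. This is a likeness over 6 libraries that share their treatment groups, and it carries no test.

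TNF was at 0.050, 1.38 and 0.068 FPKM in rhCCL20 replicates 1 to 3, against 2.44, 0.026 and 1.45 FPKM in vehicle replicates 1 to 3. CCL3 was at 0.721, 5.04 and 0.823 FPKM in the rhCCL20 libraries, against 5.34, 0.289 and 6.10 FPKM in the vehicle libraries. CCL4 was at 0.384, 2.54 and 0.176 FPKM in the rhCCL20 libraries, against 5.19, 0.205 and 3.35 FPKM in the vehicle libraries. As with CCL20, rhCCL20 replicate 2 was high and vehicle replicate 2 low within their groups, and limma gave adjusted p-values of 0.937 for TNF and CCL4 and 0.94 for CCL3. SCNM1 varied less, at 7.25, 8.28 and 6.82 FPKM in the rhCCL20 libraries, against 10.3, 7.82 and 9.20 FPKM in the vehicle libraries.

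DEFB1 ran the other way, with a root mean square difference of 1.68 from CCL20, at place 212 of the 221 genes. It was highest in rhCCL20 replicates 1 and 3, the libraries in which CCL20 was lowest, and lowest in rhCCL20 replicate 2.

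**Figure D3:**
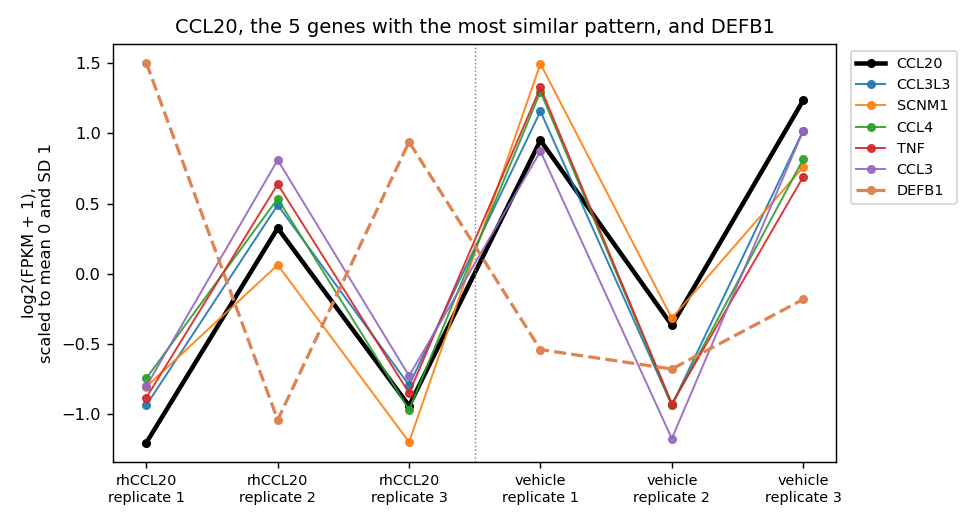
Log2(FPKM + 1) of CCL20, of the 5 genes with the most similar pattern and of DEFB1, each scaled to mean 0 and SD 1 over the 6 libraries, with rhCCL20 libraries left of the dotted line and vehicle libraries right of it. CCL20 and the 5 genes are low in rhCCL20 replicates 1 and 3 and high in vehicle replicates 1 and 3, and DEFB1 is high in rhCCL20 replicates 1 and 3.

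Leukocytes are a common source of CCR6 and of these chemokines, and 11 of their 15 listed marker genes did not pass the filter. The 15 leukocyte markers summed to between 19.3 and 22.4 FPKM in the rhCCL20 libraries and between 14.8 and 24.3 FPKM in the vehicle libraries, with CD68 the most abundant of them, which averaged 11.1 FPKM and is also expressed outside leukocytes. PTPRC, the common leukocyte antigen, was at 0.105 to 0.391 FPKM, and CD3E and CD14 averaged 0.159 and 0.345 FPKM over the 6 libraries. CD4 was listed at 0 only in rhCCL20 replicate 1 and MS4A1 only in vehicle replicate 1, and 0 of the 15 markers were at 0 in all 6. Of the 4 tested markers 0 passed in limma. The myeloid gene S100A9 was the 1 with an unadjusted p under 0.05, which 4.73% of all genes tested had. Its mean was higher with rhCCL20 (log2 fold change 0.96), though its highest library was vehicle replicate 1. S100A9 was at 2.81, 2.15 and 2.80 FPKM in rhCCL20 replicates 1 to 3, against 3.41, 0.22 and 0.14 FPKM in vehicle replicates 1 to 3. LYZ, also tested, was at 3.58, 2.92 and 4.27 FPKM in the rhCCL20 libraries, against 5.24, 0.69 and 0.47 FPKM in the vehicle libraries. These markers thus varied widely between libraries. The part of leukocyte RNA in the CCL20 and CCR6 values was not tested. In such bulk samples fewer cells of a type and less RNA per cell cannot be told apart.

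The remaining parts of the signalling chain were only in part expressed above the filter, and no tested gene passed. From 6 lists holding 111 genes, 62 passed the filter, 0 passed in limma and 0 had an unadjusted p under 0.05. The groups did not overlap for 5 of the 62, 8.06%, against 11% of all genes tested, and the 95% interval lay within 1.5-fold for all 62. Fold changes were above 0 for 47 and below 0 for 15, with a median of 0.022. The median over all genes tested was 0.012, so fold changes of all genes also leaned above 0. In 38 of the 62 genes, 61.3%, rhCCL20 replicate 3, the library that stood apart, was the highest of the 6, against 37.1% of all genes tested.

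Among the other G alpha subunits 6 of 12 were tested, with a median log2 fold change of 0.064, and all 6 were above 0. GNAS, the stimulatory subunit that opposes the inhibitory class at adenylyl cyclase, was the most abundant, at 61.7 ± 5.5 FPKM with rhCCL20 and 57.6 ± 0.29 FPKM in vehicle (SD, n = 3 each), and its log2 fold change was 0.09 (adjusted p = 0.937 in limma). GNA13, which couples receptors to the cytoskeleton, had the smallest p of the list, with a log2 fold change of 0.10 and the same adjusted p in limma. All 6 were highest in rhCCL20 replicate 3, and without that library the median was 0.0026. GNAO1 and GNAZ, further members of the inhibitory class, averaged 0.898 and 0.255 FPKM over the 6 libraries and were not tested.

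Of the G beta and G gamma subunits, which carry much of the chemotactic signal, 8 of 17 were tested, with a median log2 fold change of 0.046. GNG5 was the most abundant, at 185 ± 11 FPKM with rhCCL20 and 179 ± 4.1 FPKM in vehicle (SD, n = 3 each), and GNB4 had the smallest p, with a log2 fold change of 0.12. For both named genes the limma adjusted p was 0.937.

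Of the receptor kinases and clathrin endocytosis genes 12 of 17 were tested, 6 above 0 and 6 below, with a median of -0.0015, which lay between -0.020 without rhCCL20 replicate 3 and 0.013 without vehicle replicate 3. The receptor kinase GRK2 averaged 17.5 ± 0.69 FPKM with rhCCL20 and 17.6 ± 0.39 FPKM in vehicle (SD, n = 3 each). AP2M1, a subunit of the adaptor that binds cargo in coated pits, was the most abundant, at 122 ± 3.2 FPKM with rhCCL20 and 123 ± 1.6 FPKM in vehicle (SD, n = 3 each), and CLTC, the clathrin heavy chain, had the smallest p, with a log2 fold change of 0.10 and a limma adjusted p of 0.937. GRK2 is named as the kinase best known for chemokine receptors and was chosen after its values were seen.

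Of the G protein regulators 9 of 23 were tested, with a median log2 fold change of 0.0033, which lay between -0.016 without vehicle replicate 3 and 0.025 without vehicle replicate 2. GIPC1, a scaffold protein that binds RGS19, was the most abundant, with a mean of 38.4 FPKM over the 6 libraries, and GPSM2, which holds G alpha subunits at the cortex of dividing cells, had the smallest p. GPSM2 was at 8.66 ± 0.47 FPKM with rhCCL20 and 7.92 ± 0.12 FPKM in vehicle (SD, n = 3 each), and its log2 fold change of 0.11 (95% interval -0.0012 to 0.23) did not pass (adjusted p = 0.937 in limma).

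Of the adenylyl cyclases, phospholipases C beta and PI 3-kinases 12 of 23 were tested, all above 0, with a median log2 fold change of 0.077. PIK3R2, a regulatory subunit of PI 3-kinase, was the most abundant, at 18.3 ± 3.0 FPKM with rhCCL20 and 17.2 ± 0.49 FPKM in vehicle (SD, n = 3 each). PIK3CB, a catalytic subunit, had the smallest p, with a log2 fold change of 0.13 and a limma adjusted p of 0.937. In this list 11 of 12 genes were highest in rhCCL20 replicate 3, and without that library the median was -0.0084. PIK3CG and PIK3R5, subunits of the PI 3-kinase that G beta-gamma activates in leukocytes, averaged 0.014 and 0.063 FPKM over the 6 libraries, and these were chosen after their values were seen.

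Of the downstream kinases and small GTPases 15 of 19 were tested, with a median log2 fold change of 0.014, which was -0.038 without rhCCL20 replicate 3. RHOA, a GTPase of the contractile cytoskeleton, was the most abundant, at 185 ± 6.8 FPKM with rhCCL20 and 183 ± 2.4 FPKM in vehicle (SD, n = 3 each), and CDC42, a GTPase of filopodia, had the smallest p, with a log2 fold change of 0.03 and a limma adjusted p of 0.937. DOCK2, the activator of Rac in leukocytes, averaged 0.020 FPKM over the 6 libraries and was likewise chosen after its value was seen.

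**Figure D4:**
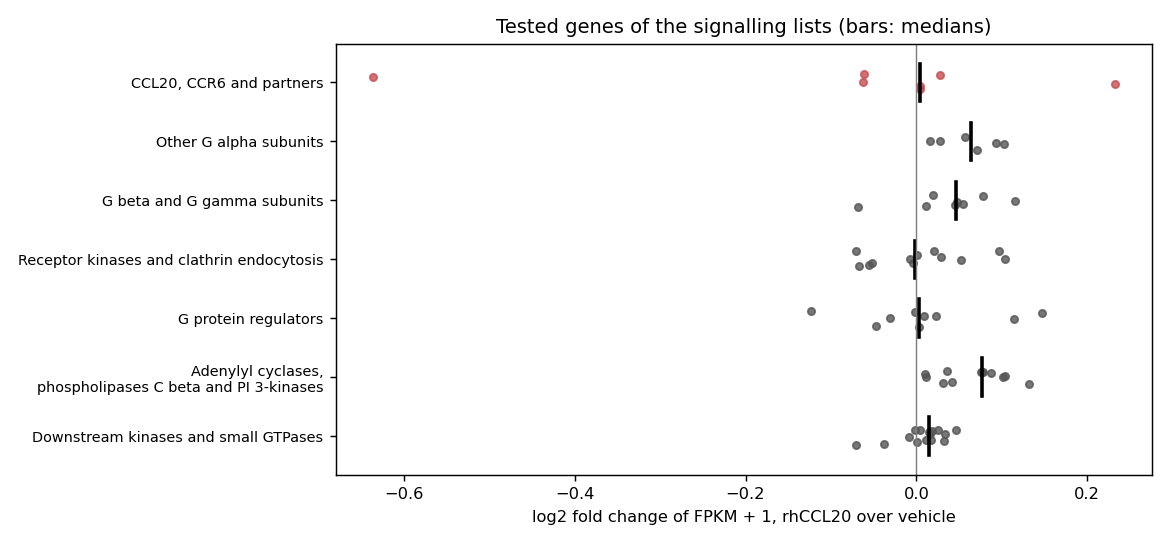
Log2 fold changes of FPKM + 1 (rhCCL20 over vehicle) of the tested genes, one row per list, with a vertical bar at each median. The 62 genes of the 6 signalling lists fall within 1.5-fold, and CCL20 and DEFB1 in the top row lie farthest from 0.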

How the data were processed

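Total RNA of 6 samples was sequenced after preparation with Trizol and a TruSeq kit, per the labels' protocols. The authors deposited FPKM, as the file headers say, with 1 value for each symbol in each library. Trimmomatic, HISAT2, Cufflinks, HTSeq and the build GRCh38 are named in the submitters' processing notes, and the sources used here give no versions, annotation, strand or filters. Depth cannot be read from FPKM, and no counting intervals are given.

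Groups follow the labels, 3 rhCCL20 and 3 vehicle libraries. A gene was tested if it reached 1 FPKM in 3 or more libraries, in limma 3.58.1 (R 4.3.3), eBayes with trend, on log2(FPKM + 1), a scale that understates changes of low genes. Benjamini-Hochberg adjustment ran over all genes tested, at a threshold of 0.05. Shares were compared by exact permutation tests. The procedure was tested on simulated data.

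The members and lists were chosen with earlier results of these data known. Named are the members, and of each list the genes past the threshold, or else the one with the smallest p, and the most abundant one, with the 5 genes most like CCL20. Relative depth was read from ratios of low values. Positions and shared exons are from GENCODE 29, promoters from RefSeq. Marker lists covered epithelial and ovarian, leukocyte, and fibroblast and endothelial genes. In the epithelial and ovarian list 5 of 11 genes were tested, with a median log2 fold change of -0.081, and in the fibroblast and endothelial list 4 of 10, with a median of 0.0093. In both lists 0 passed in limma. An unadjusted p under 0.05 was met by 1 gene in the first (MSLN) and 0 in the second, against 4.73% of all genes tested. Alternatives were other pseudocounts, filters, scalings and eBayes settings, a block for the replicate number, and leaving out single libraries.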

Additional observations from a re-analysis of the deposited data

How the results depend on the processing

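The count of 0 members past the threshold in limma held under all 15 alternatives, as did the 0 of each signalling list. The count of all genes past it, 1, was 0 with no filter, where 861 had an unadjusted p under 0.05, and ran from 1 to 3 over the fits without 1 library, with the 3 without vehicle replicate 1. The log2 fold change of CCL20 stayed negative in the 11 alternatives in which it was tested (-1.22 to -0.48), and that of DEFB1 stayed positive in 15 (0.10 to 0.42). GNAI1 and GNAI3 turned negative with quantile normalization (-0.011 and -0.0050) and with median ratio scaling (-0.0072 for each). With each library left out, GNAI1 lay between -0.032 and 0.027 and GNAI3 between -0.024 and 0.022. The difference in GNAI2 share then lay between -0.093 and 1.04 percentage points and that in ARRB1 share between -0.84 and 0.62. The cause of these turns was not tested. With the replicate number as a block 1 gene and 0 members passed, CCL20 was at -0.64 and DEFB1 at 0.23 (limma adjusted p = 0.856 for each), and no call changed. The deviations from the group means correlated at -0.10, 0.03 and 0.10 between libraries of the same number, so the numbers were not taken as pairs. Unknown depth limits the reading of CCR6 and CCL20.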
